A study of Mus musculus with 16 samples.

Results

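The ventricles and atria of control mouse hearts were compared within the same embryo at embryonic day E15.5. The comparison used 8 of the 16 libraries of the series, an atrial and a ventricular library from each of 4 control embryos, and 13950 of the 16118 listed genes, those with a mean of at least 1 CPM, the read count of a gene scaled to the depth of its library, over all libraries. Control embryos had the genotype Meis1flox/flox; Meis2flox/flox; aMHC +/+, that is, floxed alleles of Meis1 and Meis2 without Cre. The other 8 libraries came from 4 embryos that carried the same floxed alleles and aMHC tg/wt, a Cre transgene under the alpha-myosin heavy chain promoter, which is active in cardiac myocytes (dKO). They helped to estimate the spread between libraries and are compared at the end. No group in the series had wild-type Meis alleles, so both genotypes shared the floxed background. Each library held the RNA of 1 whole chamber tissue after removal of the outflow tract, with all its cell types, and left and right chambers were not separated by the labels. In such bulk samples fewer cells of a type and less RNA per cell cannot be told apart. Control embryos are numbered 1 to 4 here. The titles give embryos 1 and 2 the same first number and embryos 3 and 4 another.

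Atrial and ventricular myocytes of the mammalian heart build their sarcomeres from partly different genes. Ventricular muscle generates the pressure of the circulation and depends on large calcium transients and a dense capillary bed. Atrial muscle contracts faster, secretes natriuretic peptides and borders the sinus node, where the heartbeat starts. The identity of the chambers is known to rest on transcription factors of different families, among them the Iroquois factor Irx4 and the Hairy-related factor Hey2 in ventricles, and the orphan nuclear receptors of the COUP-TF family and Tbx5 in atria.

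The chambers differed in a large part of the transcriptome. Of the genes tested, 6543 (46.9%) had an adjusted p under 0.05, with 3678 higher in ventricles (26.4%) and 2865 higher in atria (20.5%). Counts of gene list members below are to be read beside these shares. Differences are given as the log2 of CPM plus 1, ventricle minus atrium, so that a positive value is a higher level in ventricles, with the standard error (SE) of the moderated fit. That SE draws the spread from all 16 libraries and from genes at a like level, not from the 4 pairs alone. The test was limma's, with the embryo as a block and Benjamini-Hochberg adjustment over all genes. Most called differences were small: 4398 of the called genes differed by less than 1.5-fold, and the median size of a called difference was 0.42 on the log2 scale. A difference of at least 2-fold was found for 316 genes higher in ventricles (2.27%) and 577 in atria (4.14%). At least 16-fold, 8 were higher in ventricles and 11 were higher in atria. Of the genes with at least 2-fold differences, 313 of 316 and 558 of 577 had control atria and ventricles that did not overlap, against 43.3% of all genes. These genes were chosen by their difference in the same libraries, so their separation is a description and not comparable with that of all genes. Over the 8 control libraries the first principal component, with 66% of the variance, set all atria apart from all ventricles, and the second (12.05%) set embryos 1 and 2 apart from embryos 3 and 4 in both chambers. Libraries held 14808939 to 22975051 reads on the listed genes, and 3 reads, the floor used here, were worth 0.110 to 0.158 CPM. The CPM of the listed genes added up to 753687 to 782986 in atria and to 823078 to 841274 in ventricles, a gap that bears on the direction of small differences. With each library divided by its median ratio to the gene-wise mean instead, 3178 genes were called higher in ventricles and 3243 in atria. The median difference over all genes tested was 0.0314.

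The promoters of 4 chamber genes are shown because their transcripts mark a chamber in the values that follow and because RefSeq gives each a single start. Each run is the 250 bases before the start, 5′ to 3′ on the gene's strand, from RefSeq on GRCm38.p6. Capitals mark matches, on either strand, to the motifs searched: the T-box motif GGTGTGA, the GATA motif AGATAA, the nuclear receptor half-site AGGTCA, the TEAD motif CATTCC, the MEIS motif TGACAG, the Iroquois motif ACANNTGT, the MEF2 motif CTA and TAG spaced by 4 bases, the E-box CACGTG and the CArG box.
Myl7, atrial regulatory light chain, chr11:5898783-5899032, minus strand: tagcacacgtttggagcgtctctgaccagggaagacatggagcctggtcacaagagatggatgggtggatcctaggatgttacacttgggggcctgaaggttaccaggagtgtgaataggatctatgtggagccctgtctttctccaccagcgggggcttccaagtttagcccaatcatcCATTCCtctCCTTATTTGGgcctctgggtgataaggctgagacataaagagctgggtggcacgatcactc
Nppa, atrial natriuretic peptide, chr4:148000472-148000721, plus strand: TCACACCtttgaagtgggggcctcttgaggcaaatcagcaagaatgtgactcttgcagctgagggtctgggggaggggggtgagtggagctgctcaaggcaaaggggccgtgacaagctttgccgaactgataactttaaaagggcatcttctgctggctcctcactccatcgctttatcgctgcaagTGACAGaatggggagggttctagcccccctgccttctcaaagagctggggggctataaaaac
Irx4, ventricular Iroquois factor, chr13:73260247-73260496, plus strand: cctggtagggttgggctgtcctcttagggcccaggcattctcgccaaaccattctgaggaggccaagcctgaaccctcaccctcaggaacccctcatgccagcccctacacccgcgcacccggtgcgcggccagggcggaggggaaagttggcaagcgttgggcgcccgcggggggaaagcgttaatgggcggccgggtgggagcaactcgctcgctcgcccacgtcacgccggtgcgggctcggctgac
Hey2, ventricular Hairy-related factor, chr10:30842784-30843033, minus strand: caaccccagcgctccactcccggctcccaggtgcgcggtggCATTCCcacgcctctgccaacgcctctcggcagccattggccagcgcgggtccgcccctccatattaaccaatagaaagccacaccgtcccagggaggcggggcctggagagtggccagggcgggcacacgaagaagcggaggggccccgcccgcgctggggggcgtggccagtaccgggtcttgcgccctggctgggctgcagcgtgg
The Myl7 promoter held a TEAD match 70 to 65 bases before the start, followed by a CArG box at 61 to 52 bases. The Nppa promoter held a T-box match on the opposite strand at its far end, 250 to 244 bases before the start, and a MEIS match at 62 to 57 bases. In the Hey2 promoter a TEAD match lay 209 to 204 bases before the start, and none of these letters occurred in the Irx4 window. Over all 32851 RefSeq promoters of this length, the TEAD letters occurred in 12.6%, the MEIS letters in 15.9%, the T-box letters in 3.33% and the CArG box in 1.47%. Over the 13250 promoters of genes tested, the TEAD letters occurred in 10.9% and the MEIS letters in 13.9%. Among promoters of genes at least 2-fold higher in atria (512 promoters) and in ventricles (276 promoters), the TEAD letters occurred in 14.8% and 11.6%, and the MEIS letters in 15.04% and 15.6%. A match of letters is a description and was not tested as a binding site.

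Myosin chains held several of the largest differences. Of 13 myosin chains and myosin-binding proteins, 5 were higher in ventricles, 6 in atria and 2 did not pass the test, with a median difference of -0.091 between members that lay far apart (0.20 among members with a mean of at least 5 CPM). Myl2, the ventricular regulatory light chain (chr5:122100951-122113472), measured 3654, 3598, 3944 and 4417 CPM in the ventricles of embryos 1 to 4 and 15.96, 37.003, 12.5 and 24.6 CPM in their atria. Every ventricle lay far above every atrium, and the difference of 7.48 ± 0.20 (adjusted p = 3.31e-15) was the highest of all genes tested. Myl7, its atrial counterpart (chr11:5896637-5898782), measured 3167, 3381, 3270.2 and 3928 CPM in atria and 219.6, 207, 212 and 172 CPM in ventricles (-4.08 ± 0.085, adjusted p = 1.64e-16). The essential light chains showed the same exchange on a smaller scale. Myl3, the ventricular chain, measured 116, 133, 88.4 and 133 CPM in atria and 2566, 2601, 2631 and 2694 CPM in ventricles (4.49 ± 0.15, adjusted p = 5.45e-14). Myl4, the atrial chain, measured 3103, 3319, 3176 and 3823 CPM in atria and 1004, 968, 1088 and 986 CPM in ventricles (-1.73 ± 0.070, adjusted p = 7.78e-13).

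The heavy chains also exchanged at E15.5, and no other stage was sampled. Myh7, the slow beta chain (chr14:54970684-54994626), measured 13408, 13832, 14959 and 14471 CPM in ventricles and 262, 555, 744 and 1397 CPM in atria (4.501 ± 0.48, adjusted p = 3.83e-07). Myh6, the fast alpha chain (chr14:54941921-54966927), measured 11699.8, 10803, 11069 and 12872 CPM in atria and 1741, 1615, 3322 and 4392 CPM in ventricles (-2.19 ± 0.28, adjusted p = 4.45e-06). Neither gene had overlapping groups, but the ventricles of embryos 3 and 4 held more Myh6 than those of embryos 1 and 2. The difference of Myh6 was -2.74 over embryos 1 and 2 and -1.64 over embryos 3 and 4, and that of Myh7 was 5.15 and 3.85. Counted per kilobase of exon, Myh7 made up 72.01 to 86.99% of the sum of both chains in ventricles (80.6 ± 7.04%, SD, n = 4) and 1.72 to 7.81% in atria. On the same scale Myl2 made up 83.4 to 88.6% of Myl2 and Myl7 in ventricles and 0.116 to 0.330% in atria, and Myl3 made up 84.6 to 86.1% of Myl3 and Myl4 in ventricles and 5.94 to 8.36% in atria. On this scale ventricles kept a visible share of the atrial chain of each pair, and atria a small share of the ventricular one. The shares depend on the lengths used, those of all annotated exons of a gene merged, which need not be those of the transcripts present. These lengths were 1.95 kb for Myl2 and 0.59 kb for Myl7, and 2.044 kb for Myl3 and 4.637 kb for Myl4. The plot of these shares shows that the spread among embryos was widest for the heavy chains in ventricles. Reads of Myh6 and Myh7, which are close paralogs, could have been divided between them in counting, and their values are uncertain to that extent.

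**Figure D1:**
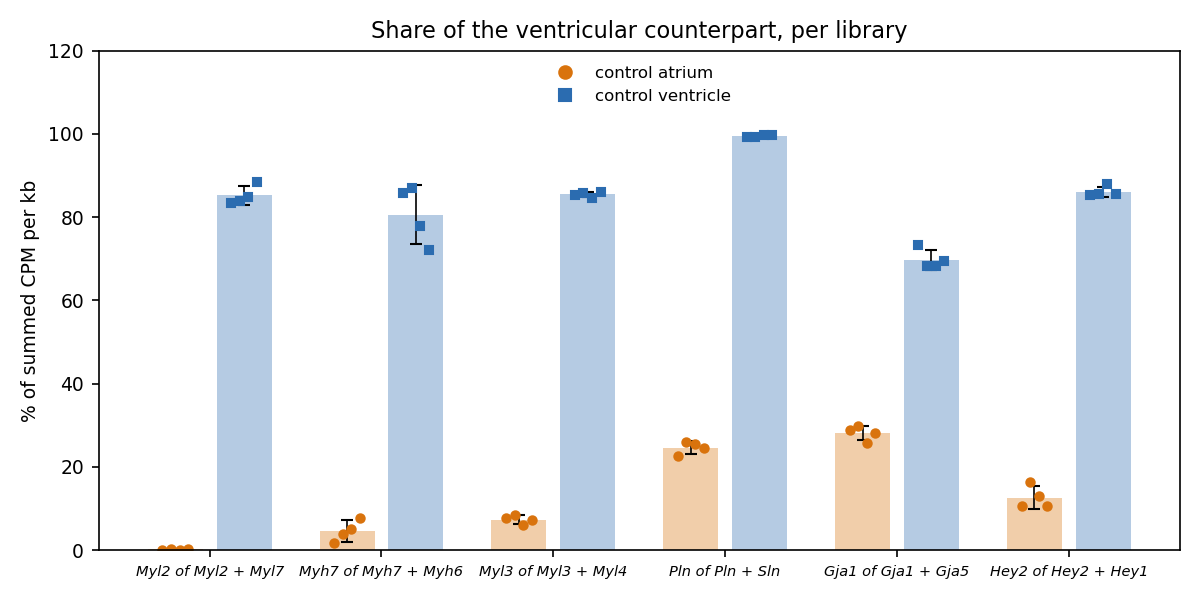
Share of the ventricular gene in the sum of a pair of counterparts, as percent of summed CPM per kilobase of exon, in control atria (orange) and ventricles (blue). Bars are means, error bars SD over 4 embryos and points single libraries, and Myh7 made up 80.6 ± 7.04% of both heavy chains in ventricles.

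**Figure D2:**
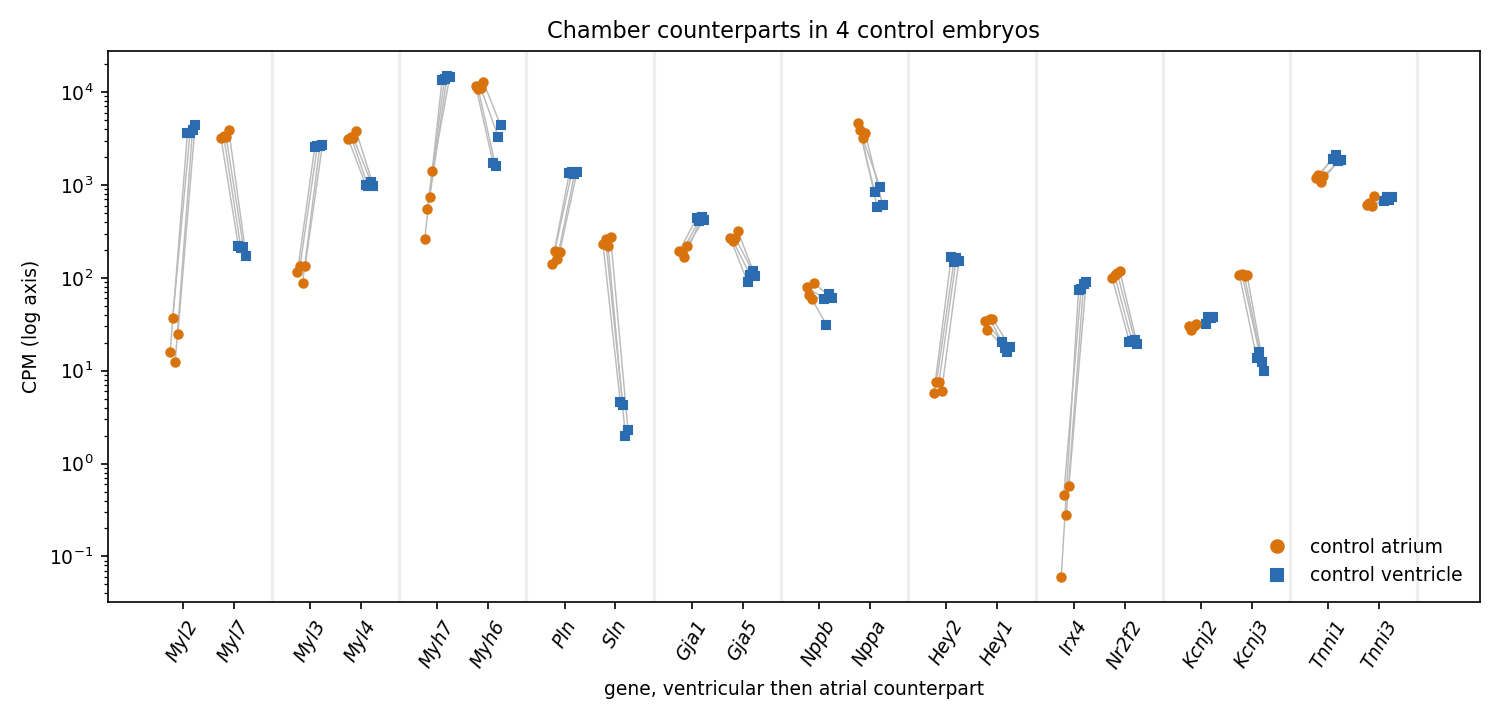
CPM on a log axis of 10 pairs of chamber counterparts in the 8 control libraries, with atria as orange circles, ventricles as blue squares and a line joining the chambers of each embryo. The regulatory light chains Myl2 and Myl7 lie far apart in the chambers, while Tnni1 and Tnni3 lie close together.

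Myosins known from skeletal muscle were found in atria. Myl1, the fast skeletal essential light chain, measured 71.2, 185, 218 and 432 CPM in the atria of embryos 1 to 4 and 3.29, 6.76, 7.36 and 10.2 CPM in the ventricles (-4.66 ± 0.56, adjusted p = 1.9e-06). Myh8, the perinatal heavy chain, measured 30.2, 42.6, 43.4 and 65.1 CPM in atria and 0.676, 1.92, 1.45 and 2.36 CPM in ventricles (-4.15 ± 0.19, adjusted p = 4.13e-12). Both varied widely among atria, and both were lowest in the atrium of embryo 1 and highest in that of embryo 4, as was Myh7 among the atria. Of the factors that define the skeletal lineage, Myog averaged 1.12 CPM in atria and 0.281 CPM in ventricles and was too low over all libraries to be tested. Myod1, Myf5 and Pax7 were not among the listed genes, whose filter is not known. Acta1, skeletal alpha-actin, did not pass the test (-0.14, adjusted p = 0.723). Mybphl, an atrial relative of myosin-binding protein C, measured 124, 131, 116 and 151 CPM in atria and 1.38, 2.92, 1.60 and 1.23 CPM in ventricles (-5.59 ± 0.14, adjusted p = 2.1e-15). Its relative Mybpc3 was nearer to even (1325 CPM in atria and 2621 CPM in ventricles, 0.99 ± 0.071, adjusted p = 2.28e-09). Myh7b was higher in ventricles (1.82), and Mylk3, the cardiac myosin light chain kinase, did not pass the test (-0.091, adjusted p = 0.502).

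Genes of the thin filament and the Z-disc had mostly smaller differences than the myosins. Of 17 thin filament genes tested, 7 were higher in ventricles and 4 in atria (median 0.14, or -0.036 with quantile normalization). Actc1, cardiac alpha-actin and the most abundant of them, measured 6676 ± 459 CPM in atria and 7619 ± 507 CPM in ventricles (SD, n = 4) and did not pass the test (adjusted p = 0.0847, or 0.0305 when paired within the control libraries alone). Cardiac troponin I, Tnni3, measured 650.1 ± 70.8 CPM in atria and 709.8 ± 33.8 CPM in ventricles (adjusted p = 0.11, or 0.0295 when so paired), while its fetal form Tnni1 measured 1194, 1274, 1069.8 and 1248 CPM in atria and 1911, 2094, 1797 and 1868 CPM in ventricles (0.68 ± 0.067, adjusted p = 1.41e-07). Fast skeletal troponin I, Tnni2, was higher in ventricles at a low level (2.19 against 11.7 CPM, 2.03), and the fast troponin T gene Tnnt3 was higher in atria (-1.12). Lmod3, a nucleator of actin filaments, was higher in ventricles (1.66), and beta-tropomyosin, Tpm2, was higher in atria (216 against 78.4 CPM, -1.46), as was nebulin, Neb (-1.11). Among 27 genes of the Z-disc, M-band and titin, 13 were higher in ventricles and 7 in atria (median 0.14). Titin, Ttn, measured 915 ± 292 CPM in atria and 1871 ± 201 CPM in ventricles (1.08 ± 0.17, adjusted p = 4e-05), and Nrap, a protein of assembling myofibrils, was higher in ventricles by 1.53. Myom2, an M-band protein, was higher in atria (-1.59), as was the stretch-responsive gene Ankrd1 (-1.09).

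Genes of the natriuretic peptide system were mostly higher in atria, with 7 of 10 members and 1 higher in ventricles (median -0.54). Nppa, atrial natriuretic peptide, measured 4608, 3876, 3185 and 3640.1 CPM in atria and 834, 573, 956 and 615 CPM in ventricles (-2.38 ± 0.14, adjusted p = 1.51e-10). Ventricles kept a substantial level of it, 14.97 to 24.97% of the atrial mean. Nppb, the B-type peptide, measured 79.6, 66.04, 58.98 and 87.4 CPM in atria and 59.9, 31.2, 66.3 and 60.7 CPM in ventricles, overlapped between chambers and did not pass the test (-0.45, adjusted p = 0.116). Paired within the 8 control libraries alone, with embryo as a term, its adjusted p was 0.0101. Pam, which amidates peptide hormones, was among the 10 most abundant atrial transcripts (4124 ± 335 CPM, against 1405 ± 172 CPM in ventricles, -1.56 ± 0.11). Corin, the protease that activates Nppa, was higher in atria as well (-1.16), and so was the clearance receptor Npr3 (-1.504), which also marks endocardium. Pcsk6, a proprotein convertase, was the member higher in ventricles (1.04).

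In calcium cycling the inhibitors of the calcium pump were exchanged between chambers. Of 33 members, 9 were higher in ventricles and 14 in atria (median -0.15). Sln, sarcolipin, which inhibits the calcium pump of the sarcoplasmic reticulum, measured 232, 261, 222 and 278 CPM in atria and 4.59, 4.24, 1.98 and 2.32 CPM in ventricles (-5.91 ± 0.17, adjusted p = 9.79e-15), the lowest value of all genes tested. Pln, phospholamban, the other inhibitor of that pump, measured 1348, 1376, 1295 and 1393 CPM in ventricles and 142, 192, 159 and 188 CPM in atria (2.99 ± 0.088, adjusted p = 9.79e-15). Per kilobase, Pln made up 99.3 to 99.7% of both inhibitors in ventricles and 22.7 to 26.002% in atria. The pump itself, Atp2a2, measured 4198 ± 188 CPM in atria and 2982 ± 99.2 CPM in ventricles (-0.49 ± 0.074, adjusted p = 2.41e-05). Ryr2, the cardiac release channel, did not pass the test (-0.055, adjusted p = 0.724), nor did calsequestrin 2, Casq2 (-0.067, adjusted p = 0.528). Ryr3, a second release channel, measured 78.97, 67.2, 71.5 and 71.95 CPM in atria and 6.55, 5.498, 7.36 and 5.91 CPM in ventricles (-3.33 ± 0.12, adjusted p = 2.59e-13). Among the pore subunits of calcium channels, Cacna1c (L-type) was higher in ventricles (1.04), whereas Cacna1d, the L-type channel of the sinus node, was higher in atria (-1.34), as was the auxiliary subunit Cacna2d2 (182 against 44.3 CPM, -2.07). The T-type channel Cacna1g was higher in ventricles (0.84).

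Potassium channels were divided between the chambers. Of 27 members, 11 were higher in ventricles and 8 in atria (median 0.096, or -0.052 among members with a mean of at least 5 CPM). Shares of all genes were 26.4% and 20.5%. Kcne1, the subunit that slows the delayed rectifier, measured 102, 90.5, 117 and 99.6 CPM in ventricles and 2.77, 5.01, 2.67 and 1.84 CPM in atria (4.71 ± 0.19, adjusted p = 5.8e-13), and its pore partner Kcnq1 was higher in ventricles too (16.3 against 39.5 CPM, 1.23). Kcnip2, the subunit of the transient outward current, was higher in ventricles (1.48 against 10.1 CPM, 2.16). The acetylcholine-gated channels went the other way. Kcnj3 measured 107, 109.5, 104 and 107 CPM in atria and 13.6, 15.7, 12.5 and 10.01 CPM in ventricles (-2.97 ± 0.11, adjusted p = 3.77e-13), and its partner Kcnj5 was higher in atria by a lesser amount (-1.62). Kcnj2, an inward rectifier of ventricular muscle, was nearly even (0.26, adjusted p = 0.0124, a call lost without embryo 2 or 3), and Kcna5, a channel on the list of atrial markers, did not pass the test (0.11, adjusted p = 0.507). Of the sulfonylurea receptors, Abcc8 was higher in atria (-2.11) and Abcc9 in ventricles (0.97). Dpp6, a subunit of transient outward channels, was higher in atria (-2.70). Of 12 sodium channels and modulators, 2 were higher in ventricles and 5 in atria (median -0.27, or 0.16 among members with a mean of at least 5 CPM). The counts fell to 3 in atria without embryo 3 and to 1 in ventricles without embryo 4. Fgf12, an intracellular modulator of these channels, measured 72.6, 65.6, 71.2 and 90.8 CPM in atria and 0.630, 0.921, 0.167 and 0.531 CPM in ventricles (-5.62 ± 0.19, adjusted p = 7.26e-14).

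The pacemaker and conduction list was largely atrial, with 13 of 18 members higher in atria and 2 in ventricles (median -1.28). Shox2, a transcription factor required for the sinus node, measured 56.4, 55.01, 53.2 and 53.3 CPM in atria and 1.75, 3.45, 0.690 and 1.08 CPM in ventricles (-4.44 ± 0.25, adjusted p = 7.7e-11). Hcn4, the main pacemaker channel, measured 86.8, 103, 87.9 and 91.3 CPM in atria and 14.1, 21.5, 20.02 and 19.5 CPM in ventricles (-2.25 ± 0.11, adjusted p = 9.05e-12). Groups did not overlap for either gene. Isl1 was higher in atria (-1.85), and Tbx3, which represses the working muscle programme in the node, was so by less (-0.61). Irx3, a factor of the ventricular conduction system, was one of the ventricular members (7.65 against 26.4 CPM, 1.66). How much of the atrial libraries was sinus node tissue was not measured. Among connexins and intercalated disc proteins, 13 of 21 were higher in ventricles and 4 in atria, or 2 without embryo 1 and 2 without embryo 2 (median 0.33). Gja1, connexin 43, measured 195, 191, 166 and 221 CPM in atria and 438, 414, 449 and 424 CPM in ventricles (1.16 ± 0.079, adjusted p = 1.03e-09), and Gja5, connexin 40, measured 269, 252, 268 and 316 CPM in atria and 89.7, 108, 117 and 105 CPM in ventricles (-1.39 ± 0.084, adjusted p = 1.91e-10). Bves, a Popeye domain membrane protein, was the ventricular member with the largest difference (1.31), and N-cadherin, Cdh2, was higher in ventricles by 0.84.

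**Figure D3:**
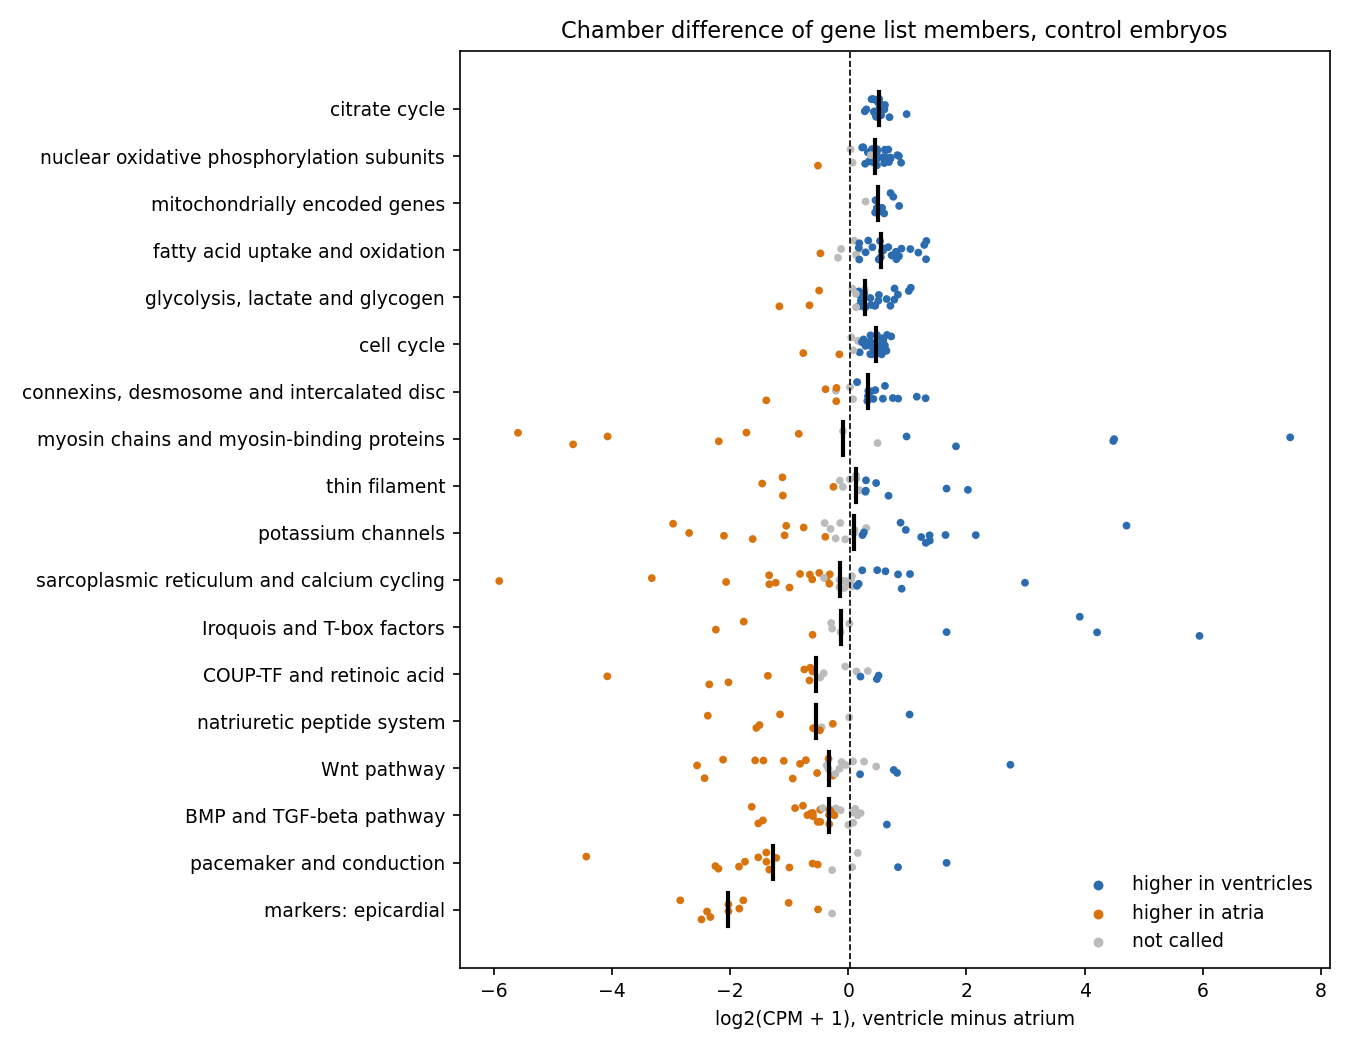
Log2 difference, ventricle minus atrium, of each tested member of 18 gene lists, with ventricular calls in blue, atrial calls in orange and members that did not pass the test in grey. The black bar is the list median and the dashed line the median of all genes tested, and the citrate cycle lies wholly to the ventricular side while the pacemaker list lies mostly to the atrial side.

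Among transcription factors, the Iroquois genes of 1 genomic cluster were all higher in ventricles. Irx1 (chr13:71957921-71963723), Irx2 (chr13:72628820-72634198) and Irx4 (chr13:73260479-73269608) lie together on chromosome 13. Irx4 measured 73.8, 75.3, 85.5 and 90.4 CPM in ventricles and 0.0598, 0.463, 0.280 and 0.570 CPM in atria (5.95 ± 0.12, adjusted p = 1.64e-16). Irx2 measured 26.7, 20.5, 23.9 and 23.6 CPM in ventricles and 0.179, 0.110, 0.788 and 0.317 CPM in atria (4.21 ± 0.17), and Irx1 measured 20.8, 16.3, 20.4 and 18.1 CPM and 0.339, 0.154, 0.788 and 0.0634 CPM (3.92 ± 0.23). Atrial levels of all 3 genes were below 1 CPM in every embryo. The other cluster, on chromosome 8, was split: Irx3 was higher in ventricles, Irx5 did not pass the test (15.01 against 13.6 CPM, -0.13, adjusted p = 0.478) and Irx6 was higher in atria (6.06 against 1.07 CPM, -1.77 ± 0.18, adjusted p = 2.37e-07). Of the T-box factors, Tbx5 measured 174, 159, 165 and 191 CPM in atria and 36.4, 36.6, 35.8 and 33.1 CPM in ventricles (-2.24 ± 0.082, adjusted p = 2.04e-13), while Tbx20 did not pass the test (424 against 429.6 CPM, adjusted p = 0.843).

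The COUP-TF and retinoic acid list had 8 of 16 members higher in atria and 3 in ventricles (median -0.54). Nr2f1 measured 89.5, 107, 91.9 and 101 CPM in atria and 5.99, 6.29, 3.45 and 3.93 CPM in ventricles (-4.08 ± 0.12, adjusted p = 7.11e-15), and Nr2f2 measured 100.4, 106, 113 and 118 CPM and 20.5, 20.7, 21.6 and 19.5 CPM (-2.35 ± 0.056, adjusted p = 9.12e-16). Aldh1a2, which makes retinoic acid and is also an epicardial marker, was higher in atria (53.4 against 12.3 CPM, -2.03), as was Aldh1a1 (-1.36). The receptor Rxra was higher in ventricles by 0.51. Of 21 core cardiac factors, 10 were higher in ventricles and 5 in atria (median 0.13). Nkx2-5, Mef2c and Hand2 did not pass the test (0.065, 0.012 and -0.017). Hand1, a factor of the left ventricle, measured 11.1, 9.18, 13.5 and 11.3 CPM in ventricles and 0.339, 0.110, 0.381 and 0.232 CPM in atria (3.27 ± 0.15, adjusted p = 3.84e-12), and Prdm16, a factor of compact myocardium, measured 32.4, 35.9, 36.4 and 38.8 CPM and 2.05, 2.18, 2.06 and 0.697 CPM (3.79 ± 0.16, adjusted p = 1.42e-12). Mycn, a driver of ventricular growth, was higher in ventricles (1.61), and so was Hopx (1.13). Gata5, an endocardial factor, was higher in atria (15.3 against 4.02 CPM, -1.71).

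Of the floxed genes, Meis2 differed between control chambers and Meis1 did not pass the test. Meis1 (chr11:18879817-19018985) measured 39.1, 37.9, 40.7 and 43.9 CPM in atria and 45.6, 41.5, 36.2 and 42.8 CPM in ventricles, overlapped between chambers and did not pass the test (0.035 ± 0.080, adjusted p = 0.749). Meis2 (chr2:115863064-116065839) measured 22.8, 27.8, 25.4 and 25.5 CPM in atria and 39.9, 35.4, 37.9 and 43.6 CPM in ventricles, and every ventricle lay above every atrium (0.61 ± 0.083, adjusted p = 8.21e-06). Among all 10 TALE homeobox factors, the family of Meis and its partners, 3 were higher in ventricles and 3 in atria, or 1 without embryo 1 and 1 without embryo 2 (median 0.011, and below 0 under each other scaling tried). Shares of all genes were 26.4% in ventricles and 20.5% in atria. Meis3 was higher in atria (8.81 against 5.54 CPM, -0.58).

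Signalling genes were divided by pathway. In the Notch, neuregulin and trabeculation list 8 of 22 were higher in ventricles and 10 in atria (median -0.064). Shares of all genes were 26.4% and 20.5%. Hey2, a target of Notch that represses atrial genes, measured 167, 147, 163 and 152 CPM in ventricles and 5.80, 7.52, 7.503 and 5.98 CPM in atria (4.37 ± 0.13, adjusted p = 7.11e-15). Its relative Hey1 measured 34.3, 27.4, 35.7 and 36.1 CPM in atria and 20.5, 17.5, 16.02 and 18.2 CPM in ventricles (-0.85 ± 0.10, adjusted p = 1.79e-06). The ligand Dll4 was higher in ventricles (0.79), while the ligand Jag1 (-1.83), neuregulin 1, Nrg1 (-0.97), and Bmp10 (225 against 71.6 CPM, -1.64) were higher in atria. Of 25 Wnt pathway genes, 12 were higher in atria and 4 in ventricles (median -0.34). The atrial ones included the ligand Wnt2b (-1.44), the receptor Fzd7 (-2.56), the enhancer of Wnt signals Rspo1 (-2.12), the secreted Dkk3 (-2.43) and the feedback gene Axin2 (15.6 against 4.62 CPM, -1.58). Wif1, a secreted inhibitor of Wnt ligands, was higher in ventricles (0.908 against 11.7 CPM, 2.74). In the BMP and TGF-beta list 17 of 28 were higher in atria and 1 in ventricles (median -0.33), the latter being the activin subunit Inhba (0.65). Bmp4 (-1.53) and the antagonist Chrdl1 (-1.45) were among those higher in atria.

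Receptors of the autonomic nervous system and their signalling genes were even in number, with 6 of 20 higher in ventricles and 6 in atria (median 0.064, or -0.0094 with quantile normalization). These counts are near the shares of all genes, 26.4% and 20.5%. The muscarinic receptor Chrm2 (66.03 against 25.03 CPM, -1.37), the adenosine receptor Adora1 (-1.22) and the G protein subunit Gnao1 (-2.03), which act on the acetylcholine-gated channels, were all higher in atria. The beta-1 adrenergic receptor Adrb1 did not pass the test (12.3 against 12.5 CPM, adjusted p = 0.896).

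Genes of energy metabolism were higher in ventricles almost throughout. All 20 of 20 citrate cycle genes were called in that direction (median 0.51), against 26.4% of all genes. Of nuclear subunits of oxidative phosphorylation 37 of 41 were higher in ventricles (median 0.46), and of mitochondrially encoded genes 12 of 13 (median 0.51). Fatty acid uptake and oxidation had 23 of 29 higher in ventricles (median 0.55), and glycolysis, lactate and glycogen 22 of 29 (median 0.28). Differences of at least 2-fold in that direction were found in 0 citrate cycle genes, 0 nuclear subunits, 0 mitochondrially encoded genes, 5 fatty acid genes and 2 glycolytic genes. With quantile normalization the medians were smaller, 0.37 for the citrate cycle, 0.34 for nuclear subunits and 0.39 for mitochondrially encoded genes. For fatty acid genes the median was then 0.43, and for glycolysis, lactate and glycogen 0.21. Sdha, a subunit shared by the cycle and the respiratory chain, measured 319.8, 333, 304 and 347 CPM in atria and 623, 689, 614 and 662 CPM in ventricles (0.99 ± 0.056, adjusted p = 9.33e-11), the largest difference of the cycle, and citrate synthase, Cs, measured 432, 438, 441 and 492 and 608, 645, 579.8 and 663 CPM (0.47 ± 0.054, adjusted p = 1.04e-06). The mitochondrially encoded genes together made up 4.13 to 4.37% of listed CPM in atria and 5.38 to 6.13% in ventricles, and the nuclear subunits 1.39 to 1.57% and 1.83 to 1.98%. Neither range overlapped between chambers. The muscle isoforms of cytochrome oxidase subunits were divided: Cox6a2 was higher in atria (186 against 129.7 CPM, -0.51), Cox7a1 did not pass the test (0.037, adjusted p = 0.788) and Cox8b was higher in ventricles (0.63).

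For fatty acids, Fabp3, the heart fatty acid carrier, measured 143, 155, 149 and 179 CPM in atria and 369, 392, 368 and 442 CPM in ventricles (1.32 ± 0.091, adjusted p = 1.13e-09). Acsl1, which activates fatty acids, was higher in ventricles by 1.29, and the coactivator Ppargc1b by 1.32. Slc27a1, a fatty acid transporter, was the 1 member higher in atria (-0.47), and Cd36 did not pass the test (0.098, adjusted p = 0.364, or 0.0474 when paired within the control libraries alone). In glycolysis, hexokinase 2, Hk2, was higher in ventricles by 1.06, the lactate exporter Slc16a3 by 1.02 and Ldha by 0.84. By contrast 3 members of that list were higher in atria, 1 of them by at least 2-fold (-1.17). The glucose transporter Slc2a1 was another (-0.49). Mb, myoglobin, the oxygen store of muscle, measured 593, 679, 681 and 766 CPM in ventricles and 11.9, 14.4, 11.8 and 21.8 CPM in atria (5.45 ± 0.14, adjusted p = 1.89e-15). The ratio of its mean CPM in ventricles to that in atria was 45.4, and no embryo went against it. Muscle creatine kinase, Ckm, was higher in ventricles by 1.04, and the mitochondrial kinase Ckmt2 was higher in atria (-0.28, adjusted p = 0.0393, a call lost when any 1 embryo was left out).

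Cell cycle genes were higher in ventricles in 29 of 34 cases (median 0.48), with 2 higher in atria. Mki67, a marker of cycling cells, measured 213, 202, 167 and 193 CPM in atria and 281, 305, 304 and 322 CPM in ventricles (0.65 ± 0.091, adjusted p = 1.15e-05), and groups did not overlap. Cyclin B1, Ccnb1 (0.66), and the spindle motor Kif11 (0.73) were higher to a like degree. Those higher in atria were the inhibitor Cdkn1c (467 against 275 CPM, -0.76) and cyclin D2, Ccnd2 (-0.15, adjusted p = 0.045, a call lost when any 1 embryo was left out). Which cell type cycled more was not measured in these whole-tissue libraries.

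Extracellular matrix and guidance genes were divided. Of 37 matrix genes, 13 were higher in atria and 9 in ventricles (median -0.059, or 0.016 without embryo 2), against 20.5% and 26.4% of all genes. Vcan, versican, measured 87.02, 105, 83.9 and 78.6 CPM in atria and 408, 362, 387 and 368 CPM in ventricles (2.10 ± 0.086, adjusted p = 8.76e-13), and the basement membrane collagen Col15a1 was higher in ventricles by 2.39. Fibronectin, Fn1, was higher in atria (1840.3 against 909 CPM, -1.01), as were Fbln2 (-1.10) and Col1a1 (-0.75). Of 26 guidance cues and receptors, 11 were higher in ventricles and 11 in atria (median -0.12). A ligand and a receptor stood at opposite ends: Slit3 measured 134, 135, 124 and 122 CPM in atria and 15.97, 16.9, 14.6 and 13.3 CPM in ventricles (-3.01 ± 0.11, adjusted p = 2.59e-13), while its receptor Robo1 measured 12.9, 20.2, 18.4 and 13.03 CPM and 60.7, 55.2, 70.4 and 61.1 CPM (1.90 ± 0.12, adjusted p = 4.58e-10). The receptor Epha4 was higher in atria (139.7 against 16.2 CPM, -3.04) and the ligand Efnb3 in ventricles (1.26).

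The marker lists matched the labelled chamber in every control library. The lists were drawn up with earlier results of these data known, so this match is no independent evidence. Of 17 atrial myocyte markers 16 were higher in atria, and of 17 ventricular markers 16 in ventricles. The summed CPM of atrial markers was 15691 to 17351 in atria and 3317 to 4131 in ventricles, and that of ventricular markers 1013 to 2240.2 and 23575 to 25713. Irx4 in atria was 0.0736 to 0.702% of its ventricular mean and Myl2 0.321 to 0.948%, and Sln in ventricles was 0.796 to 1.85% of its atrial mean. The exceptions to both lists were Kcna5 and Irx5.

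Markers of several other cell types differed between chambers as well, and their part in the differences above was not tested. Of 11 epicardial markers 10 were higher in atria (median -2.03), with a summed CPM of 454 to 526 in atria and 129 to 169 in ventricles. Upk3b, a marker of mesothelium, measured 154, 164, 127 and 144 CPM in atria and 25.8, 20.2, 17.6 and 15.7 CPM in ventricles (-2.85 ± 0.12, adjusted p = 1.84e-12), whereas Wt1, a factor of the epicardium, differed by less (26.9 against 18.5 CPM, -0.51). Fibroblast markers had 6 of 13 higher in atria and 2 in ventricles, or 1 without embryo 2 or 3 (summed CPM 5597 to 7459.9 and 4251 to 4866). Smooth muscle and pericyte markers were mostly ventricular, 7 of 11 against 3 (summed CPM 908 to 1038 in atria and 1835 to 2219 in ventricles). The pericyte genes Cspg4 (2.64) and Rgs5 (2.28) were higher in ventricles and the smooth muscle myosin Myh11 in atria (7.56 against 1.86 CPM, -1.61). Coronary vessel markers were higher in ventricles in 5 of 9 cases, against 26.4% of all genes. Among them were the chemokine receptor Cxcr4 (1.69 against 15.1 CPM, 2.62), the capillary gene Fabp4 (2.54) and the arterial factor Sox17 (2.26). Of the other members, Nr2f2, also on the atrial myocyte list, was higher in atria (-2.35). A further 3 did not pass the test, Cd36 among them. Of 15 endothelial and endocardial markers, 8 were higher in atria and 6 in ventricles, and their summed CPM was 1677 to 1728 in atria and 1307 to 1363 in ventricles, without overlap. Pecam1, found in all endothelium, was at 135 against 149 CPM (0.14, adjusted p = 0.0325), a call lost when any 1 embryo was left out, under each other scaling tried and with DESeq2. Plvap, a gene of fenestrated endothelium, was higher in atria (-1.69). Valve mesenchyme markers were higher in ventricles in 8 of 11 cases, for example the tendon and valve factor Scx (1.80). Macrophage markers had 3 of 13 higher in atria and erythroid markers 2 of 8, shares near the 20.5% of all genes, and the erythroid count was 0 without embryo 4 and 5 without embryo 2.

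Neuron and glia markers were higher in atria in 7 of 8 cases, but in only 3 without embryo 3, whose atrium stood apart, and in 4 without embryo 1. Their summed CPM was 41.2, 19.7, 108 and 35.2 in atria 1 to 4 and 12.7 to 17.1 in ventricles. Prph, peripherin, an intermediate filament of peripheral neurons, measured 4.60, 0.640, 19.7 and 3.74 CPM in atria and 0.630, 0.0789, 0.357 and 0.165 CPM in ventricles (-2.08 ± 0.52, adjusted p = 0.00283). The atrium of embryo 3 was the highest, and it also held more of the epithelial gene Cdh1 (2.53, 0.110, 9.995 and 0.232 CPM in atria and 0.0233, 0.0789, 0.262 and 0.275 CPM in ventricles). Sftpc and Nkx2-1, which define lung epithelium, were not among the listed genes, whose filter is not known. Without embryo 3 the differences were -1.47 for Prph and -0.59 for Cdh1 (adjusted p = 0.0208 and 0.198). The calls of Phox2a (-0.51, adjusted p = 0.296), Tubb3 (-1.21, 0.105), Stmn2 (-0.98, 0.242) and Elavl4 (-0.35, 0.161), all genes of neurons, were lost without embryo 3. Cdh1 lost its call too, as it did without embryo 1 (-1.04, adjusted p = 0.159).

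Several of the largest differences belonged to genes outside these lists. They are given here with Mpped2 and Stard10, which are on the lists of ventricular and atrial myocyte markers. In ventricles, Ddc, which decarboxylates aromatic amino acids, measured 125, 123, 88.1 and 131 CPM against 4.72, 8.67, 7.76 and 7.58 CPM in atria (3.86 ± 0.17, adjusted p = 3.12e-12). The uridine phosphorylase Upp1 measured 22.2, 22.02, 18.97 and 17.9 CPM against 1.45, 0.816, 0.331 and 0.824 CPM (3.55 ± 0.18), Mpped2, a metallophosphoesterase, 47.3, 44.4, 47.2 and 45.6 CPM against 2.13, 3.24, 1.65 and 2.26 CPM (3.85 ± 0.10), and Btnl9, a butyrophilin-like gene, 18.5, 23.2, 25.1 and 22.1 CPM against 1.65, 1.70, 1.20 and 2.22 CPM (3.11 ± 0.14). In atria several genes known from neurons were at the top. The calcium sensor Vsnl1 measured 82.2, 80.03, 71.7 and 85.2 CPM in atria and 1.003, 2.499, 0.548 and 1.12 CPM in ventricles (-5.20 ± 0.17, adjusted p = 6.95e-14). Slc17a7, a vesicular glutamate transporter, measured 72.8, 64.6, 70.6 and 72.5 CPM and 1.47, 2.13, 1.74 and 1.48 CPM (-4.72 ± 0.11), and Ap3b2, the neuronal subunit of an adaptor complex, 11.2, 10.9, 16.9 and 14.5 CPM and 0.257, 0.0789, 0.262 and 0.128 CPM (-3.59 ± 0.23). Ap3b2 was highest in the atrium of embryo 3, as the neuron markers were, and Vsnl1 and Slc17a7 were not. The kinase Camk1d (78.004 against 3.60 CPM, -4.12), the zinc transporter Tmem163 (68.9 against 3.57 CPM, -3.95) and the lipid transfer protein Stard10 (176 against 11.7 CPM, -3.79) completed the atrial group. Uts2b, a urotensin-like peptide, measured 16.9, 13.2, 11.1 and 17.5 CPM in atria, and its 2 reads over all 4 ventricles lay under the floor of 3.

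**Figure D4:**
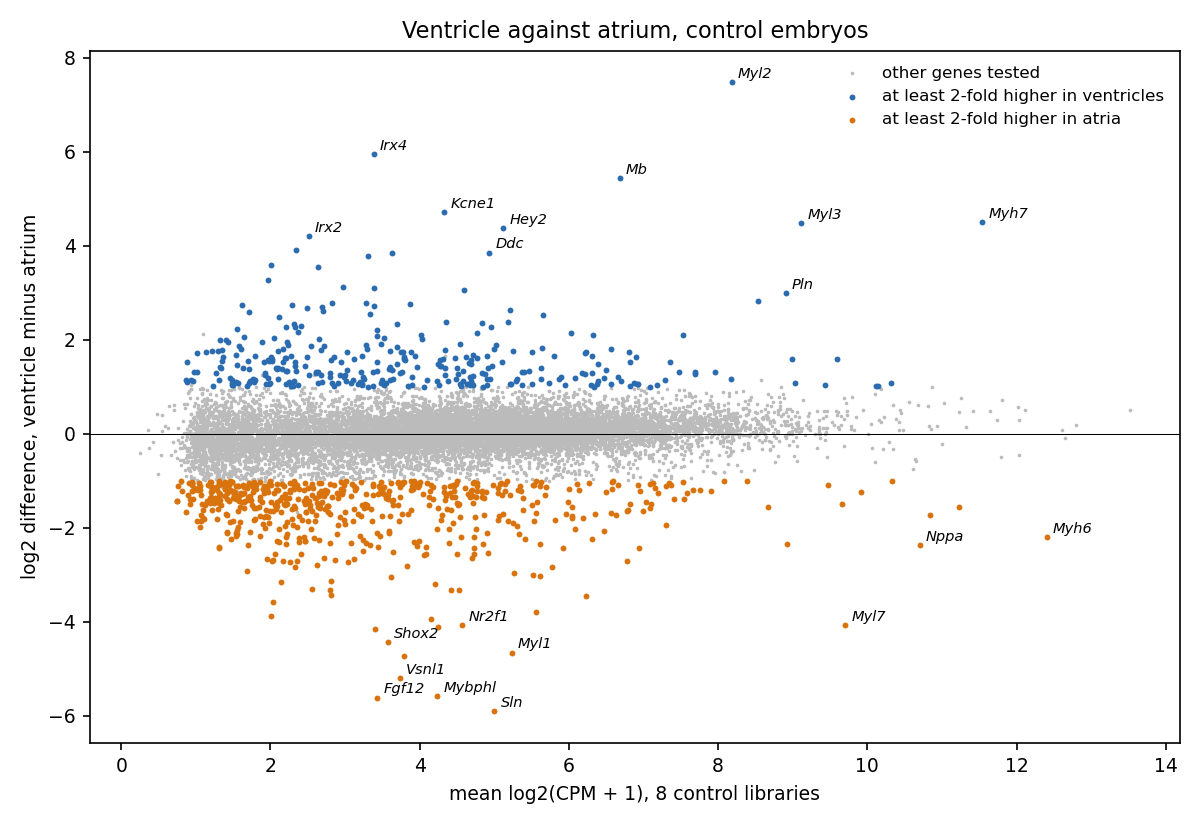
Log2 difference, ventricle minus atrium, of each gene tested against its mean log2 of CPM plus 1 over the 8 control libraries. Ventricular calls of at least 2-fold are blue, atrial ones orange and other genes grey, and the 20 labelled genes are described in the text, with Myl2 at the top and Sln at the bottom.

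The spread of the large differences among embryos is given as a description, since a test over the same embryos chose these genes. Over the 893 genes of at least 2-fold, the SD of the difference over the 4 embryos had a median of 0.24 on the log2 scale, and it exceeded 0.5 in 96 genes and 1 in 24, among them the neuron genes Prph, Stmn2, Tubb3 and Phox2a. Among those with the widest spread were Scgb3a2 (SD 1.93), a secretoglobin of airway epithelium, and the complement gene C3 (SD 1.73), the former highest in the atrium of embryo 3 and the latter in that of embryo 1. Scgb3a2 measured 1.93, 0.0662, 20.98 and 0.612 CPM in atria and had 0 reads in ventricles, and C3 measured 105, 6.16, 4.71 and 5.51 CPM in atria and 2.92, 0.973, 1.40 and 2.25 CPM in ventricles. The call of Scgb3a2 (-1.67, adjusted p = 0.0364) was lost without embryo 3 (-0.75, adjusted p = 0.215) and without embryo 1 (-1.71, adjusted p = 0.0899). These genes were named after their values were seen.

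The same contrast in dKO embryos used other animals and gave a similar picture for the large differences. In the 8 dKO libraries fitted alone, 303 of the 316 ventricular genes of at least 2-fold were called higher in ventricles (21.5% of all genes were) and 546 of the 577 atrial genes higher in atria (19.5% of all genes). The difference between genotypes in the contrast, tested as an interaction in the fit of 16 libraries, was called for 43 and 64 of these genes (2.64% of all genes). These genes were chosen by the control contrast, which the interaction subtracts, so their share is not comparable with that of all genes. Myl3 differed between chambers by 4.49 in control and 6.06 in dKO embryos (interaction adjusted p = 0.000177), and Nppa by -2.38 and -1.12 (adjusted p = 0.000966). For Gja1 the values were 1.16 and 2.22 (adjusted p = 1.4e-05). For Mpped2 they were 3.85 and 2.72 (adjusted p = 0.000157), and for Myl4 -1.73 and -1.31 (adjusted p = 0.0251). The atrial gene Ryr3 differed by -3.33 in control and by -1.27 in dKO embryos (adjusted p = 1.53e-06). By contrast Myl2 (7.48 and 6.60, adjusted p = 0.126), Irx4 (5.95 and 5.54, adjusted p = 0.301) and Sln (-5.91 and -6.39, adjusted p = 0.426) had no called difference between genotypes, which does not show that they were alike. Depth was 7880189 to 14281320 reads in dKO ventricles and 15635416 to 22975051 reads in control ventricles, and its part in these differences was not tested.

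**Figure D5:**
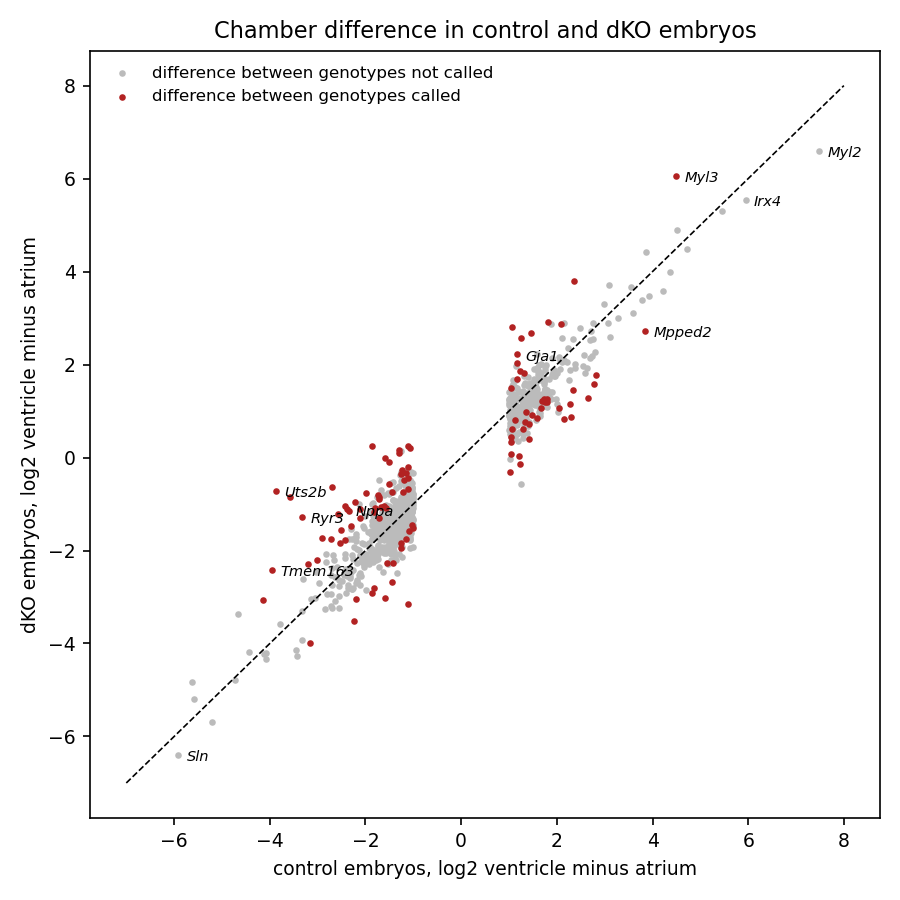
Chamber difference (log2, ventricle minus atrium) of the 893 genes of at least 2-fold in control embryos on the horizontal axis against the same difference in dKO embryos on the vertical axis, with genes whose difference between genotypes was called in red. Most points lie near the dashed line of equal values, and Gja1, Myl3 and Nppa are among those that lie off it.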

How the data were processed

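RNA from atrial and ventricular tissue of 8 mouse embryos at E15.5 was sequenced, per the labels' protocols, from 20 ng of RNA per library with single reads of 60 bases. The authors deposited CPM values, read counts scaled to library depth, for 16118 genes in 16 libraries. Reads were processed with cutadapt and RSEM 1.3.1 on GRCm38, per the submitters' processing notes. How CPM were scaled, which genes were filtered, the release of the annotation and whether strand was used: none of these is given in the sources used here. The values, less an offset of 0.5 read, were whole multiples of 1 read in each library for 100% of values (tolerance 0.001), so that reads could be recovered. A listed value at 0 reads is therefore a small CPM. Depth ranges are given with the results.

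Genes whose CPM averaged 1 or more over the 16 libraries were tested as the log2 of CPM plus a pseudocount of 1 in limma 3.58.1 (R 4.3.3) with a mean-dependent prior. All 16 libraries shared the estimate of spread, with the embryo as a block (consensus correlation 0.108), and p-values were adjusted over all 13950 genes by the Benjamini-Hochberg method. A call is an adjusted p under 0.05. On the log2 scale with this pseudocount, differences of genes at low levels come out smaller than they are. Atrium and ventricle of 1 animal form a pair by the labels: same-embryo deviations from the group means correlated at 0.359, 0.291, 0.511 and 0.431 in control embryos 1 to 4. P-values rest on the spread drawn from all 16 libraries of both genotypes and from genes at a like level, not on the 4 control pairs alone. The labels' protocol speaks of 4 litters with 1 embryo of each genotype, which does not match the title numbers, so litter was not modelled. Tested on simulated data with 13950 genes, the fit of this contrast recovered 99% of changes of 1 and 73% of changes of 0.5 (log2), and 3.91% of its calls were false. The simulation changed far fewer genes than were called here and gave every gene the same dispersion. It also had no gap in summed CPM between chambers, so these shares need not hold for the real data. Recovered reads were tested with edgeR 4.0.16 (quasi-likelihood, embryo as a term), which called 6932 genes, and with DESeq2 1.42.0, which called 5950.

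The comparison and the gene lists were chosen with earlier results of these data known, so the lists are no independent evidence. Genes were named by rule: the 15 largest called differences in each direction with the same sign in 4 pairs, no overlap and an ordinary symbol; up to 4 called members of each list in each direction and the 2 uncalled members at the highest level; Meis1 and Meis2; fixed chamber counterparts; and the 10 highest genes of each chamber. A few genes that the rule names are not reported here. Adrb1, C3, Cacna1d, Cox8b, Cs, Elavl4, Hand2, Kcnq1, Mef2c, Mybpc3, Myog, Pecam1, Phox2a, Scgb3a2, Wnt2b, Wt1 and the genes under other observations were chosen after their values were seen. Locations are GENCODE M21 on GRCm38, matched by symbol or identifier for 16096 genes, and promoters are RefSeq's. Because the use of strand is not stated, values are uncertain for 33 of the 187 named genes whose exons overlap another gene's. On the opposite strand these were Angpt1, Atp2a2, Cacna1d, Ccnd2, Cd34, Chrm2, Ckm, Dll4, Fabp3, Gja5, Hand2, Hopx, Igf2, Irx3, Kcnj3, Kcnq1, Mb, Mybphl, Myh6, Myh7, Myh7b, Myl3, Nppa, Nr2f1, Nr2f2, Nrap, Phox2a, Pln, Ryr3, Shox2 and Tmem163, and on the same strand Igf2, Pam and Tnni3. The alternatives were other pseudocounts, filters, scalings, blocks and tools, each title number alone and leaving out each embryo.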

Additional observations from a re-analysis of the deposited data

Results flagged for a closer look

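A library or an embryo lay far from the other 3 of its group, by Dixon's test, in 30 of 591 groups of 4 values examined. Chance gives about 1 in 20 such groups. Among levels these were Actc1 in the atrium of embryo 4 (7362 CPM), Adora1 in the atrium of embryo 3 (46.6 CPM), C3 in the atrium of embryo 1 (105 CPM), Cacna1d in the ventricle of embryo 4 (12.5 CPM), Camk1d in the ventricle of embryo 2 (5.02 CPM), Cd34 in the atrium of embryo 1 (32.7 CPM) and Cs in the atrium of embryo 4 (492 CPM). The others were Fabp4 in the atrium of embryo 4 (16.9 CPM), Inhba in the ventricle of embryo 3 (20.7 CPM), Nrap in the atrium of embryo 2 (103 CPM), Prdm16 in the atrium of embryo 4 (0.697 CPM), Scgb3a2 in the atrium of embryo 3 (20.98 CPM), Stard10 in the atrium of embryo 4 (219 CPM) and Uts2b in the ventricle of embryo 2 (0.132 CPM). The summed liver markers stood apart in the atrium of embryo 1 (6.87 CPM), the library in which C3 was high as well. Among differences between the chambers of 1 embryo (log2, ventricle minus atrium) these were Atp2a2 in embryo 4 (-0.60), Cd34 in embryo 1 (1.996), Cd36 in embryo 2 (0.17), Kcna5 in embryo 2 (0.36), Kcnip2 in embryo 2 (2.74), Kif11 in embryo 3 (0.83), Lmod3 in embryo 3 (2.01), Meis3 in embryo 4 (-0.25), Npr3 in embryo 1 (-1.37), Prdm16 in embryo 4 (4.55), Ryr3 in embryo 3 (-3.12), Tnni3 in embryo 4 (-0.031), Vcan in embryo 2 (1.78), Wif1 in embryo 1 (3.20) and Zim1 in embryo 3 (-2.16).

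The chamber difference itself differed between dKO and control embryos, by the interaction term in limma at an adjusted p under 0.05, for 37 of the 187 genes named here. The share of all genes was 2.64%. Most of the named genes were chosen for large differences in control embryos, which the interaction subtracts. Their share is therefore not comparable with that of all genes. Values are the chamber difference in dKO minus that in control embryos on the log2 scale. It was shifted towards ventricles in dKO embryos for Abcc8 (1.003), Abcc9 (0.84), Ap3b2 (2.74), Atp2a2 (0.44), Cacna1c (0.45), Corin (0.82), Dpp6 (2.07), Efnb3 (1.31), Fabp3 (0.49), Frem2 (0.81), Gja1 (1.06), Kcnj5 (0.58), Kcnq1 (0.63) and Meis1 (0.60). The same direction was found for Myh7b (1.09), Myh8 (1.09), Myl3 (1.57), Myl4 (0.42), Myom2 (1.58), Nppa (1.26), Peg3 (0.47), Ryr3 (2.06), Slit3 (0.80), Tbx20 (0.46), Tmem163 (1.54), Usp29 (0.66), Uts2b (3.16) and Zim1 (0.95). It was shifted towards atria for Cd34 (-0.48), Cspg4 (-1.36), Dio2 (-1.14), Kcnj2 (-0.44), Meis2 (-0.79), Mpped2 (-1.13), Pcsk6 (-0.96), Pdgfb (-0.87) and Pecam1 (-0.29). Meis1 and Meis2 are the genes floxed in all embryos, and the dKO embryos alone carried Cre.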

How the results depend on the processing

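The counts of called genes stayed within 1.5 times of the values given under every alternative with a test, except those of at least 2-fold differences. With a pseudocount of 5 these were 166 in ventricles and 256 in atria. In atria they were 375 with a mean of at least 5 CPM, 891 with edgeR and 878 with DESeq2. A larger pseudocount shrinks differences and a stricter filter tests fewer genes, while the cause of the gap to edgeR and DESeq2 was not tested. Without the replicate block, 6160 genes were called over 16 libraries, against 7205 with embryo as a term in the 8 control libraries and 6401 with embryo as a term in all 16, an alternative chosen after seeing the data. Leaving out 1 embryo at a time gave 5461 to 5593 genes called, 3025 to 3141 higher in ventricles and 2408 to 2454 in atria, with 313 to 331 and 566 to 589 of at least 2-fold. The share of calls higher in ventricles, 56.2%, was lowest with median-ratio scaling (49.5%) and highest with a mean of at least 5 CPM (60.3%), so the direction of small differences depends on the scaling. Tbx20 turned to -0.19 under quantile normalization, for a cause that was not tested. Of the 168 named genes called, 158 were called in each of 17 alternatives, and Ccnd2, Cdh1, Ckmt2, Elavl4, Kcnj2, Pecam1, Phox2a, Scgb3a2, Stmn2 and Tubb3 were not. Without the block the calls of Ccnd2, Cdh1, Ckmt2 and Phox2a were lost over 16 libraries, and those of Cdh1, Phox2a and Scgb3a2 over the 8 control libraries. Of the named genes not called, 8 were called in at least 1 alternative (Acta1, Actc1, Casq2, Cd36, H19, Mylk3, Nppb and Tnni3). Of 29 lists with a median beyond 0.2 in size, 27 kept their sign in every alternative, the exceptions being sodium channels with a mean of at least 5 CPM (0.16) and liver markers without embryo 1 (0.042) or with embryos 3 and 4 only (0.11). Genes with fewer than 3 reads in a chamber have no reliable fold there.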

Other observations

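Some genes outside the lists were looked at after their values were seen, and they are given as values. Imprinted neighbours on chromosome 7 were higher in atria. Peg3, a paternally expressed zinc finger gene (chr7:6703892-6730431), measured 769, 716, 666 and 655 CPM in atria and 248, 234, 231 and 228 CPM in ventricles (-1.57 ± 0.059, adjusted p = 2.65e-13). Its neighbour Usp29 measured 35.7 CPM in atria and 9.36 CPM in ventricles (-1.83 ± 0.075), and Zim1, the maternally expressed gene beside them, 281 and 42.97 CPM (-2.71 ± 0.14). Other imprinted genes were divided. Dlk1 (-1.09), Meg3 (-0.79) and Nnat (-1.35) were higher in atria, as was the growth factor Igf2 (4938 against 3589 CPM, -0.46), while the growth inhibitor Grb10 was higher in ventricles (792 against 1602 CPM, 1.02 ± 0.046, adjusted p = 3.76e-12). H19 did not pass the test (6627 against 6227 CPM, adjusted p = 0.413).

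Fras1 and its relatives encode basement membrane proteins that anchor epithelia. Fras1 measured 368, 289, 276 and 313 CPM in atria and 82.9, 76.4, 80.3 and 78.8 CPM in ventricles (-1.95 ± 0.081, adjusted p = 1.28e-12), Frem2 was at 147 against 44.2 CPM (-1.71), Frem3 at 8.71 against 1.55 CPM (-1.94), and the adaptor Grip1 at 18.6 against 4.41 CPM (-1.86). Frem1 did not pass the test (22.7 against 20.6 CPM, -0.12, adjusted p = 0.21). The nephronectin gene Npnt, a basement membrane ligand, was higher in atria (77.7 against 19.1 CPM, -1.96). Epicardial markers were also higher in atria, and their part was not tested. Among vessel genes, Angpt1, a ligand that stabilises vessels, was higher in atria (248 against 21.7 CPM, -3.46 ± 0.15, adjusted p = 2.56e-12) as was Vwf (-1.79), and the pericyte ligand Pdgfb (4.78 against 28.1 CPM, 2.33 ± 0.11, adjusted p = 3.79e-12), Cd34 (1.74) and the chemokine Cxcl12 (1.39), whose receptor is Cxcr4, were higher in ventricles. Hormone genes higher in ventricles included Dio2, which activates thyroid hormone (1.11 against 9.24 CPM, 2.28), the mineralocorticoid receptor Nr3c2 (1.57) and the angiotensin receptor Agtr1a (1.58).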
